A study of Mus musculus with 25 samples.

Results

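The genes described here encode the machinery that loads antigen fragments onto major histocompatibility complex (MHC) class II molecules, measured in mouse lung during the first 4 days of calorie restriction (CR). They are H2-Aa, H2-Ab1, H2-Eb1, Cd74, H2-DMa and H2-DMb1, chosen by name, each through every probe set of the array annotated to that symbol alone. This gave 7 probe sets for 6 genes, of 7440 probe sets for 5706 genes that were bright enough to be tested. H2-DMa alone had 2 probe sets. All 7 passed the filter on low signal, and none reached the signal floor on any array. A further probe set shared between H2-DMb2 and H2-DMb1 was left out by the rule.

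The samples were lungs of C57BL/6 mice, an inbred laboratory strain, hybridised to 24 Affymetrix MG-U74Av2 arrays. Mice under CR, whose food was cut by 2/3, gave 2 arrays at each of 2, 4, 12, 24, 48, 72 and 96 h. Fed controls gave 4 arrays at 0 h and a pair at each of 2, 4 and 12 h. The fed samples are described as always fed, but their text also holds the words for the food cut, so their feeding is not certain. Arrays are labelled by number and letter (1a, 1b), and only fed 0 h has both number 1 and number 2. The letters may mark separate mice or 1 RNA hybridised again, and the p-values below may therefore reflect technical spread only. CR at 24 to 96 h, called late CR here, was compared with fed 0 h and also with the 6 arrays of fed 2, 4 and 12 h. By the labelled hours, fed 0 h has the clock time of late CR. Fed 2, 4 and 12 h have other clock times, so diet and time of day cannot be told apart against them. Early CR, at 2, 4 and 12 h, was set against fed lungs taken at those hours.

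MHC class II molecules are pairs of an alpha and a beta chain that present peptides from the endosomes to CD4 T cells. They are made mainly by dendritic cells, B cells and macrophages, and in the lung also by alveolar type II cells. New pairs bind the invariant chain, the product of Cd74, which fills the groove and takes them to the endosome, where the chain is cut down. The heterodimer of H2-DMa and H2-DMb1 then removes the remaining fragment and lets peptides bind. The genes share a promoter module, the X and Y boxes, on which the factors RFX and NF-Y assemble and recruit the co-activator CIITA, the product of Ciita.

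The sequences below show this module in the members where its letters were found, since it is a feature that the choice of genes did not use. The promoters are RefSeq's for GRCm38.p6, and the 250 bases before each gene start were searched on both strands. The letters of the X box and then of the Y box are in capitals.

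H2-Aa: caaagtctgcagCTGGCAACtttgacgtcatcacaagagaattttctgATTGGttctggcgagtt

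H2-Eb1: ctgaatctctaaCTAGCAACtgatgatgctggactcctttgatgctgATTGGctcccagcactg

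H2-DMb1: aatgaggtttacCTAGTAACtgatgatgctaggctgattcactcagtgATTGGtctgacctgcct

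They lie at chr17:34287855-34287919 on the minus strand, chr17:34305761-34305824 on the plus strand and chr17:34153082-34153146 on the plus strand, in that order. The X letters searched were CTNGNAAC and the Y letters ATTGG, the second being the core that NF-Y binds. The X letters were set after these promoters had been read, so the matches are a description. The pair within 30 bases was found in 101 of 32851 promoters, 0.307%, while the X letters alone were in 10.9% and the Y letters alone in 33.8%. The gap between the boxes was 28 bases in H2-Aa and H2-DMb1 and 27 in H2-Eb1. H2-Ob, which encodes a chain of the DM inhibitor, held the pair as well, with a gap of 25 bases. Neither of the 2 promoters listed for H2-DMa held it, nor did those of H2-Oa, H2-DMb2, H2-Eb2 and B2m. H2-Ab1 had no promoter in the set searched, and Cd74 was not among the genes looked up. For neither is it known here whether the promoter holds the pair.

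The class II genes were among the brightest of the lung. Averaged over the 24 arrays, the Cd74 signal lay at percentile 99.3 of all probe sets of an array, H2-Aa at 98.3 and H2-Eb1 at 96.9. H2-DMa lay at 93.8 by its bright probe set, H2-Ab1 at 93.6 and H2-DMb1 at 83.5. The other H2-DMa probe set was far dimmer, at percentile 56.6. Signals of different probe sets are not set against each other in what follows, because each probe set binds with its own strength.

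The lungs of late CR mice had less class II signal than those of fed mice. Against fed 0 h, 5 of the 7 probe sets were called lower and none higher (limma, Benjamini-Hochberg adjusted p under 0.05 over all 7440), where 8.24% of all tested probe sets were called lower and 9.85% higher. Their median log2 change was -0.82, beside -0.00 over all tested probe sets. All 7 changes were negative, from -1.05 to -0.25. Against fed 2, 4 and 12 h, 6 of 7 were called lower, where 2.73% of all were. The median log2 change was then -0.88, beside 0.02 over all tested. Clock times differ in that second comparison. In bulk lung, fewer cells of a type and less RNA per cell cannot be told apart.

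**Figure D1:**
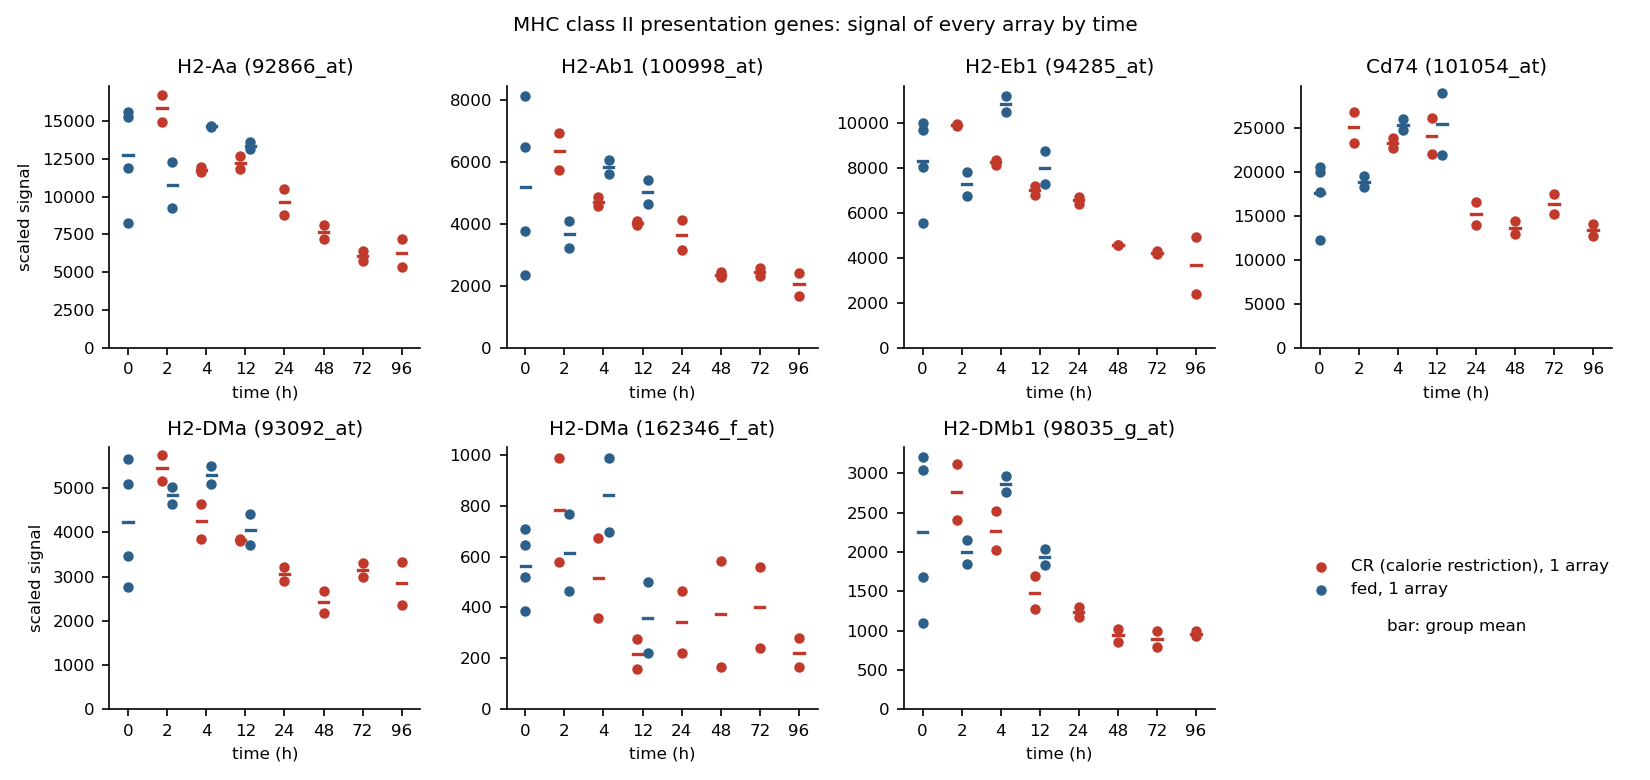
Scaled signal (linear axis from 0) of the 7 member probe sets on every array against time in hours, with CR in red, fed in blue and bars at group means. The CR 24 to 96 h points lie low in every panel except that of the dim H2-DMa probe set, and the 4 fed 0 h points spread widely.

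H2-Aa encodes the alpha chain of the I-A molecule. Its signal over the 8 late CR arrays ran from 5311 to 10534, with a median of 7197. The fed 0 h arrays 1a, 1b, 2a and 2b had 15322, 15605, 8285 and 11918. The late arrays lay below 3 of those 4, and array 2a fell within their range. Late CR was 1.71-fold lower than fed 0 h (95% confidence interval 1.38 to 2.12, limma adjusted p = 0.00199). Over fed 2, 4 and 12 h the signal ran from 9267 to 14714 with a median of 13374, and late CR was 1.77-fold lower (1.46 to 2.13, limma adjusted p = 0.000502).

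H2-Ab1 encodes the beta chain that pairs with it. In late CR it ran from 1677 to 4127, with a median of 2427, and the fed 0 h arrays had 8123, 6490.5, 2349 and 3766. This was the widest relative spread of fed 0 h among the members, and late arrays overlapped both number 2 arrays. The late group was 1.83-fold lower (1.31 to 2.55, limma adjusted p = 0.0144). Against fed 2, 4 and 12 h, at 3229.8 to 6051, it was 1.86-fold lower (1.39 to 2.50, limma adjusted p = 0.00951).

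H2-Eb1 encodes the beta chain of the I-E molecule. C57BL/6 mice carry an Ea gene that is not transcribed, so the strain lacks I-E at the surface although it makes the Eb chain. The probe set of H2-Ea was at or below the signal floor on 18 of 24 arrays and that of the related H2-Eb2 on 23 of 24. H2-Eb1 itself had 9916 and 9831 signal units on the CR 2 h arrays, 8329.7 and 8125 at 4 h and 6779.8 and 7197 at 12 h. It then had 6695 and 6395 at 24 h, 4573 and 4554 at 48 h, 4165 and 4276 at 72 h, and 4932 and 2396 at 96 h. The fed arrays had 9984, 9663, 5515 and 8005 at 0 h, then 7789.6 and 6751 at 2 h, 11183 and 10473 at 4 h, and 7263 and 8715 at 12 h. All 8 late arrays thus lay below all 6 fed arrays of 2, 4 and 12 h, and below the fed 0 h arrays other than 2a. The late group was 1.77-fold lower than fed 0 h (1.39 to 2.25, limma adjusted p = 0.00291) and 1.87-fold lower than fed 2, 4 and 12 h (1.52 to 2.31, limma adjusted p = 0.000581).

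Cd74 was the only member gene called against fed 2, 4 and 12 h but not against the 4 fed 0 h arrays together. Its late CR signal ran from 12692 to 17483 (median 14263), and the fed 0 h arrays had 20589, 17743, 12291 and 20014. Against fed 0 h the log2 change was -0.25 with a standard error of 0.13 (limma adjusted p = 0.185), which was not called. The later fed arrays were brighter, from 18281 to 28978 (median 23329), and all 8 late CR arrays lay below all 6 of them. Against these, late CR was 1.57-fold lower (1.33 to 1.86, limma adjusted p = 0.00132). Between the controls themselves, fed 2, 4 and 12 h against fed 0 h, Cd74 had a log2 change of 0.41 (limma adjusted p = 0.129), and none of the 7 probe sets was called, where 1.85% of all were called in either direction.

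H2-DMb1, the beta chain of the peptide editor DM, had the largest fold of the called members against both controls. It ran from 792 to 1306 in late CR, with a median of 993, and the fed 0 h arrays had 3210.1, 3039.6, 1097 and 1686. Only the fed 0 h array 2a lay within the late range. Late CR was 2.07-fold lower than fed 0 h (1.51 to 2.83, limma adjusted p = 0.00364). All late arrays lay below the 6 later fed arrays, which ran from 1836 to 2967, and the fold was 2.23 (1.69 to 2.95, limma adjusted p = 0.000706). H2-DMa, the alpha chain, had 2165 to 3337 in late CR (median 2941) by its bright probe set, with 5654, 5094, 2758 and 3471 in fed 0 h, and again only array 2a overlapped. It was 1.44-fold lower than fed 0 h (1.14 to 1.81, limma adjusted p = 0.0308) and 1.65-fold lower than the later fed arrays (1.35 to 2.03, limma adjusted p = 0.00332). The dim H2-DMa probe set, at 164 to 584 in late CR and 385 to 707 in fed 0 h, had a log2 change of -0.89 with a standard error of 0.36 and was not called (limma adjusted p = 0.0900).

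**Figure D2:**
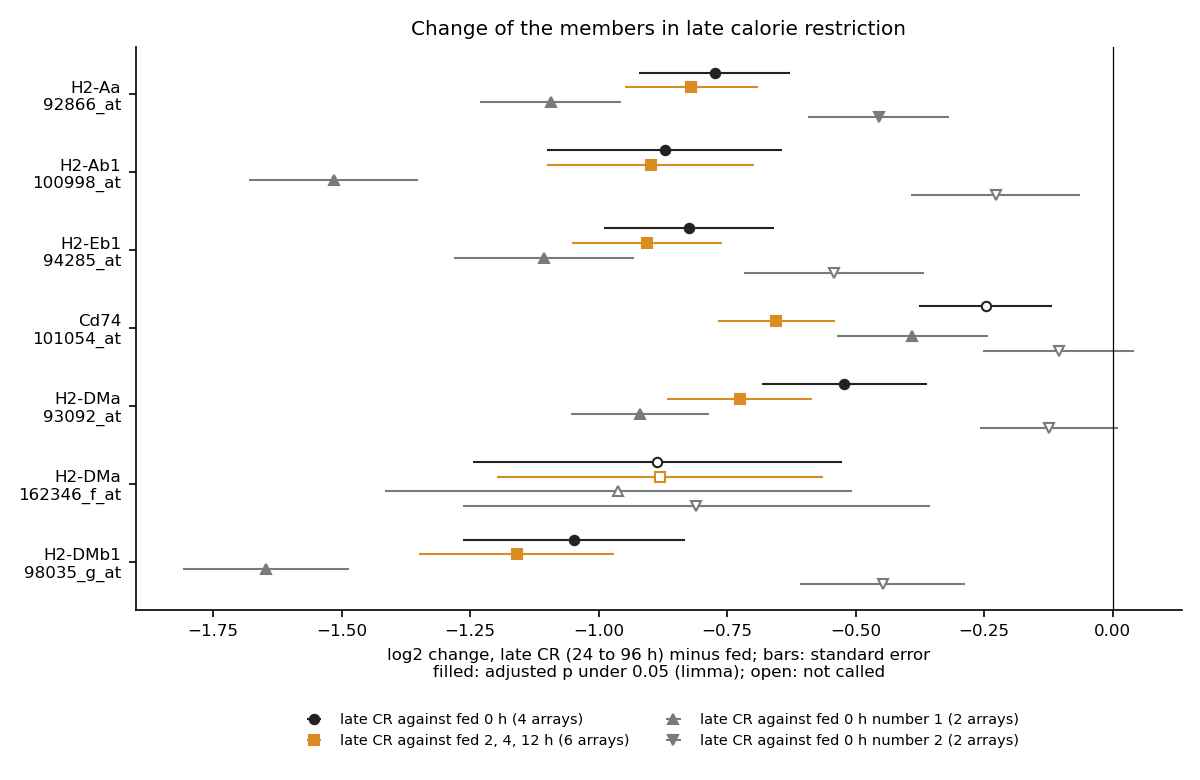
Log2 change (horizontal axis) of each member probe set in late CR, against fed 0 h (black), fed 2, 4 and 12 h (orange), and each fed 0 h number alone (grey triangles up for number 1, down for number 2), with standard errors as bars and filled symbols where adjusted p was under 0.05. All 28 changes are negative, and those against number 2 lie nearest to 0 for every probe set.

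The groups did not separate cleanly on single arrays. Of the 7 probe sets, 4 had all 8 late arrays below all 6 arrays of fed 2, 4 and 12 h (H2-Eb1, Cd74, H2-DMa by its bright probe set and H2-DMb1), where 1.12% of all tested probe sets did so. None had all late arrays below all 4 fed 0 h arrays, where 2.22% did. The lowest fed 0 h array was 2a for every member. Below the other 3 fed 0 h arrays lay all late arrays of 5 probe sets, where 4.97% of all did, and the choice to leave 2a aside was made after the values were seen.

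The 2 numbers of fed 0 h differed in these genes. Number 1 was higher than number 2 for all 7 probe sets and 5 of these differences were called (limma), where 20% of all tested probe sets were called higher in number 1 and 39.9% in either direction. H2-Ab1 was 2.44-fold higher in number 1, H2-DMb1 2.30-fold, H2-DMa 1.73-fold, H2-Aa 1.56-fold and H2-Eb1 1.48-fold. Late CR was lower than number 1 in 6 of 7 (background 23.8%), by log2 changes of -1.65 to -0.39. Against number 2 all 7 changes were negative, from -0.81 to -0.10, but only H2-Aa was called (-0.46, limma adjusted p = 0.0471; background 2.94%). The number 1 arrays, with CR 24 and 48 h, belong to 12 arrays whose highest signal was 74441 to 99043. The number 2 arrays, with CR 72 and 96 h, belong to the other 12, with 31595 to 54315. On the first 12 arrays that highest signal was Sftpc, a marker gene of alveolar type II cells. Its scaled signal was 71740 to 97698 on those arrays and 22257 to 51195 on the other 12. The split thus follows the level of a gene of the tissue, and whether it stems from the arrays or the lungs was not tested. CR 24 and 48 h against number 1 gave 6 probe sets lower (background 23.3%). CR 72 and 96 h against number 2 gave 3, namely H2-Aa, H2-Eb1 and H2-DMb1 (background 3.66%). Fed 2, 4 and 12 h, in turn, were lower than number 1 in 2 probe sets, H2-Ab1 and H2-DMb1 (background 18%), and higher than number 2 in 4, H2-Ab1, Cd74, H2-DMa and H2-DMb1 (background 6.02%). The summed signal of 11 B-cell genes was 15136 and 15269 on the number 1 arrays, against 6725 and 9044 on the number 2 arrays. With the signal range as a block in the fit, the same 5 probe sets were called lower against fed 0 h, with unchanged log2 values, since both sides hold equal numbers of arrays of each range. All 7 were then called lower against fed 2, 4 and 12 h. In those fits 34.2% and 30.1% of all tested probe sets were called in either direction. Only fed 0 h held arrays of both ranges, so the block took its range effect from number 1 against number 2 alone. Range and number cannot be told apart there.

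The count against fed 0 h also rested on single control arrays. Without fed 0 h 1a, or without 1b, 3 probe sets remained called, and H2-Ab1 and the bright H2-DMa probe set lost their calls. Calls over all tested probe sets, in either direction, also fell, to 595 and 542 of 7440 from 1346 with every array. With arrays a and b averaged, which is the right unit if they are repeats of 1 RNA, no member was called against either control. In the fit of 11 groups, 23 of 7440 probe sets (0.309%) were then called in either direction against fed 0 h and 14 (0.188%) against fed 2, 4 and 12 h. With the times of a phase pooled, which leaves more residual degrees of freedom, 50 (0.672%) and 12 (0.161%) were called. The 5 probe sets called against fed 0 h had limma adjusted p of 0.138 to 0.241 in that pooled fit, and the 6 called against fed 2, 4 and 12 h had 0.120 to 0.297.

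Single late times gave fewer calls than their mean. At CR 24 h all 7 changes from fed 0 h were negative, with a median log2 of -0.37, but none was called, where 0.82% of all tested were called lower. At unadjusted p under 0.05, 1 of the 7 passed at 24 h, H2-DMb1. At 48 h, H2-Eb1 and H2-DMb1 were called, where 2.92% of all were. At 72 h, H2-Aa, H2-Eb1 and H2-DMb1 were called (background 2.14%), and at 96 h H2-Ab1 as well (background 2.57%). The members' median log2 change over the last 3 times was -0.82, -0.93 and -1.10. Of the called changes at single times the largest was that of H2-Eb1, 2.35-fold lower at 96 h (1.68 to 3.30, limma adjusted p = 0.00315), with 4932 and 2396 on its CR 96 h arrays. A moderated F test over the 4 late times called no member, where 0.578% of all were called, and at unadjusted p under 0.05 H2-Aa and H2-Eb1 passed. Taken as pairs of days, a comparison added after the values were seen, CR 72 and 96 h were lower than CR 24 and 48 h for H2-Aa (log2 -0.48, limma adjusted p = 0.0181) and H2-Eb1 (-0.52, limma adjusted p = 0.0437), where 2.69% of all were. Days and signal range cannot be told apart in that comparison.

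The order of the late times on single arrays was not the same for every member, and its difference between members was not tested. H2-Aa had 10534 and 8795 signal units at CR 24 h, 8096 and 7194 at 48 h, 5741 and 6427 at 72 h, and 7200.1 and 5311 at 96 h. Both 24 h arrays thus lay above both 48 h arrays, and these above both arrays of 72 h. H2-Ab1 had 4127 and 3152 at 24 h, 2263 and 2454 at 48 h, 2560.1 and 2326 at 72 h, and 2399 and 1677 at 96 h, so that only its 24 h arrays stood above those of the later days. H2-DMb1 had 1306 and 1175 at 24 h, 1025.0 and 857 at 48 h, 998 and 792 at 72 h, and 930.2 and 988 at 96 h, again with the 24 h pair on top.

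Cd74 and H2-DMa showed no such order. Cd74 had 13933 and 16574 at CR 24 h, 12943 and 14426 at 48 h, 15186 and 17483 at 72 h, and 12692 and 14099.6 at 96 h. H2-DMa, by its bright probe set, had 2889.8 and 3222 at 24 h, 2165 and 2678 at 48 h, 3306 and 2992 at 72 h, and 3337 and 2359.6 at 96 h. For both genes the 48 h arrays overlapped those of 96 h and the highest late array was one of 72 or 96 h. The change of CR 72 and 96 h from CR 24 and 48 h was 0.04 for Cd74 and 0.13 for H2-DMa on the log2 scale, and neither was called.

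Before the first day was over the members were not lower in any called way. In the mean of CR 2, 4 and 12 h against the fed groups of the same hours, none of the 7 was called, none had an unadjusted p under 0.05, and the median log2 change was -0.05. Only 0.0269% of all tested probe sets were called there. At 2 h all 7 were higher than in fed lungs of that hour. Both CR 2 h arrays are of the high signal range and both fed 2 h arrays of the low one, so feeding and range cannot be told apart there. With the range as a block, which rests on the fed 0 h arrays alone, the early changes of H2-Aa, H2-Ab1 and Cd74 turned negative. H2-Aa had 14938.0 and 16771 on the CR 2 h arrays, against 12280.0 and 9267 on the fed 2 h arrays, and H2-Ab1 had 5734 and 6928, against 4086 and 3229.8. Their log2 changes were 0.57 (limma adjusted p = 0.738) and 0.80 (limma adjusted p = 0.776), so neither was called, although both passed at an unadjusted p under 0.05. No probe set of the array was called at CR 2 or 4 h. Cd74 had 23358 and 26892 at CR 2 h, against 19527 and 18281 in fed lungs, and both CR arrays lay above both fed arrays for 6 of the 7 probe sets, where 26.5% of all tested did so. At 12 h the order of Cd74 was not clear, with 22036 and 26114 under CR, against 28978 and 21895 in fed lungs. H2-DMb1 had 1269.7 and 1698 at CR 12 h, against 2037 and 1836 in fed lungs, without overlap but with a log2 change of -0.40 that was not called (limma adjusted p = 0.999). At 4 h and at 12 h all 7 changes were negative, with medians of -0.32 and -0.19, and none was called, where 0% and 0.148% of all were called in either direction. At 4 h, where all arrays are of the low range, both CR arrays lay below both fed arrays for all 7. At 12 h, where all are of the high range, this held for H2-Aa, H2-Ab1, H2-Eb1 and H2-DMb1. The share of all tested probe sets with that order was not counted at these hours. The early mean thus pools changes of opposite sign.

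Over the 11 groups, 6 of 7 probe sets varied by a moderated F test (limma adjusted p from 0.00334 for H2-Aa to 0.0405 for H2-DMa), where 9.26% of all tested did. The dim H2-DMa probe set did not pass (limma adjusted p = 0.142). For the other 6, the 4 late CR groups had the 4 lowest of the 11 group means, an order held by 2% of all tested probe sets. The highest mean was that of CR 2 h for H2-Aa, H2-Ab1 and H2-DMa, of fed 4 h for H2-Eb1 and H2-DMb1 and of fed 12 h for Cd74. The highest group mean was 1.90 times the lowest for Cd74, 2.25 for H2-DMa, 2.61 for H2-Aa, 2.96 for H2-Eb1, 3.11 for H2-Ab1 and 3.20 for H2-DMb1. Neighbours in these orders mostly did not separate. Of the 10 neighbouring pairs of groups, the arrays overlapped in 6 for H2-Eb1, 7 for H2-Aa, 8 for H2-Ab1, H2-DMa and H2-DMb1, and 9 for Cd74.

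The members moved together from array to array. Between the brightest probe sets of the 6 genes, the 15 pairwise correlations of log2 signal over the 24 arrays ran from 0.715 to 0.949, with a median of 0.863. Within groups, after group means were removed, they ran from 0.300 to 0.908. The dim H2-DMa probe set correlated less with the others, at 0.431 to 0.599. These points share array, scaling and tissue makeup, so the correlations are a description. The sizes of change were not all alike. Of the 15 pairs, 7 had a 95% interval of the difference in late change from fed 0 h that left out 0, and 4 of these held Cd74. The change of H2-Eb1 minus that of Cd74 was -0.58 (-0.97 to -0.18). With fed 2, 4 and 12 h as control, 3 of 15 intervals left out 0, all with H2-DMb1, and the change of H2-Eb1 minus that of Cd74 was -0.25 (-0.60 to 0.10). For the 2 chains of DM, H2-DMa by its bright probe set minus H2-DMb1 was 0.53 (0.18 to 0.87) and 0.43 (0.13 to 0.74) log2 units under the 2 controls. The dim H2-DMa probe set changed by -0.89 and -0.88 (standard errors 0.36 and 0.32), nearer to H2-DMb1 at -1.05 and -1.16. It thus does not bear out a difference between the chains. The intervals were not adjusted for the number of pairs.

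The other genes of class II assembly and peptide loading were mostly not called. Of 14 tested, 1 fell and 1 rose against fed 0 h, with a median log2 change of -0.01. These counts are near the shares of all tested probe sets, 8.24% called lower and 9.85% higher. H2-Oa, the alpha chain of the DM inhibitor DO, had 288 to 425 over late CR and 398 to 669 over fed 0 h, and was 1.54-fold lower (1.15 to 2.07, limma adjusted p = 0.0364). Ifi30, the thiol reductase of the endosome, rose by 0.54 log2 (limma adjusted p = 0.0360). Set against fed 2, 4 and 12 h, 2 fell and none rose, where 2.73% of all were called lower. These were H2-Ob, the DO beta chain (log2 -1.42, limma adjusted p = 0.0337), and Ctss, the protease that makes the last cuts of the invariant chain (-0.82, limma adjusted p = 0.0126). Both were named after their values were seen, and H2-Ob was at or below the floor on 5 of 24 arrays, which makes its log2 change depend on the floor. Against number 1 of fed 0 h alone 9 of 14 fell, where 23.8% of all were called lower. Against number 2 alone 4 rose and none fell, where 7.76% of all were called in either direction.

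Ciita, the master regulator of class II transcription, was dim, at 206 to 452 over the 24 arrays. Its late CR signals ran from 206 to 410 with a mean of 288 ± 74.2 (SD, 8 arrays), beside 373 ± 59.1 in fed 0 h (4 arrays). The change was -0.40 log2 and was not called (limma adjusted p = 0.0816), nor was that from fed 2, 4 and 12 h (-0.43, limma adjusted p = 0.0740). At single times it was near fed 0 h on the first days, with changes of -0.06 at 24 h and -0.11 at 48 h, and lower later. The change was -0.66 at 72 h (limma adjusted p = 0.0807) and -0.77 at 96 h, where it was called (limma adjusted p = 0.0460). On the CR 96 h arrays Ciita had 228 and 206, against 314 to 452 on the fed 0 h arrays, without overlap, but these days coincide with the low signal range. Within that range, CR 72 and 96 h against number 2 had a change of -0.88 (limma adjusted p = 0.0109), and within the high range, CR 24 and 48 h against number 1 had 0.08 (limma adjusted p = 0.784). Number 1 was not higher than number 2 for Ciita (-0.33, limma adjusted p = 0.308). Ciita is named beyond its list's rule, after its values were seen. Of the 12 tested genes of class II transcription, 1 fell and 1 rose against fed 0 h, near the 8.24% and 9.85% of all tested probe sets. Irf8, an interferon regulatory factor of B cells and myeloid cells, fell by 0.58 log2 (limma adjusted p = 0.0114) and was also the only one lower than fed 2, 4 and 12 h. Jak1, a kinase of the interferon receptors, rose by 0.48 (limma adjusted p = 0.0255).

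The class I route, which presents peptides from the cytosol to CD8 T cells, had 4 calls against fed 0 h, all in proteasome genes. Of 15 tested genes, 4 fell and none rose against fed 0 h, with a median log2 change of -0.14, where 8.24% of all were called lower. Psmb10 fell by 0.89 log2 (limma adjusted p = 0.00767), Psmb8 by 0.88 (limma adjusted p = 0.00994) and Psmb9 had a change of -0.999 (limma adjusted p = 0.0136). These are the 3 subunits that interferon puts into the immunoproteasome. Psme1, a subunit of its activator, fell by 0.62 (limma adjusted p = 0.0247). The class I heavy chains H2-K1 and H2-D1 and their light chain B2m had changes of -0.03, -0.14 and -0.07 and were not called. Relative to fed 2, 4 and 12 h, 3 fell, where 2.73% of all did. They were Psmb8, Psmb10 and Tap1, a subunit of the transporter that carries peptides into the endoplasmic reticulum (log2 -0.34, limma adjusted p = 0.0281). Against number 2 alone none was called, where 7.76% of all were called in either direction. Of the 3 tested T-cell partner genes, Cd4, Cd40 and Icam1, none was called against either control.

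**Figure D3:**
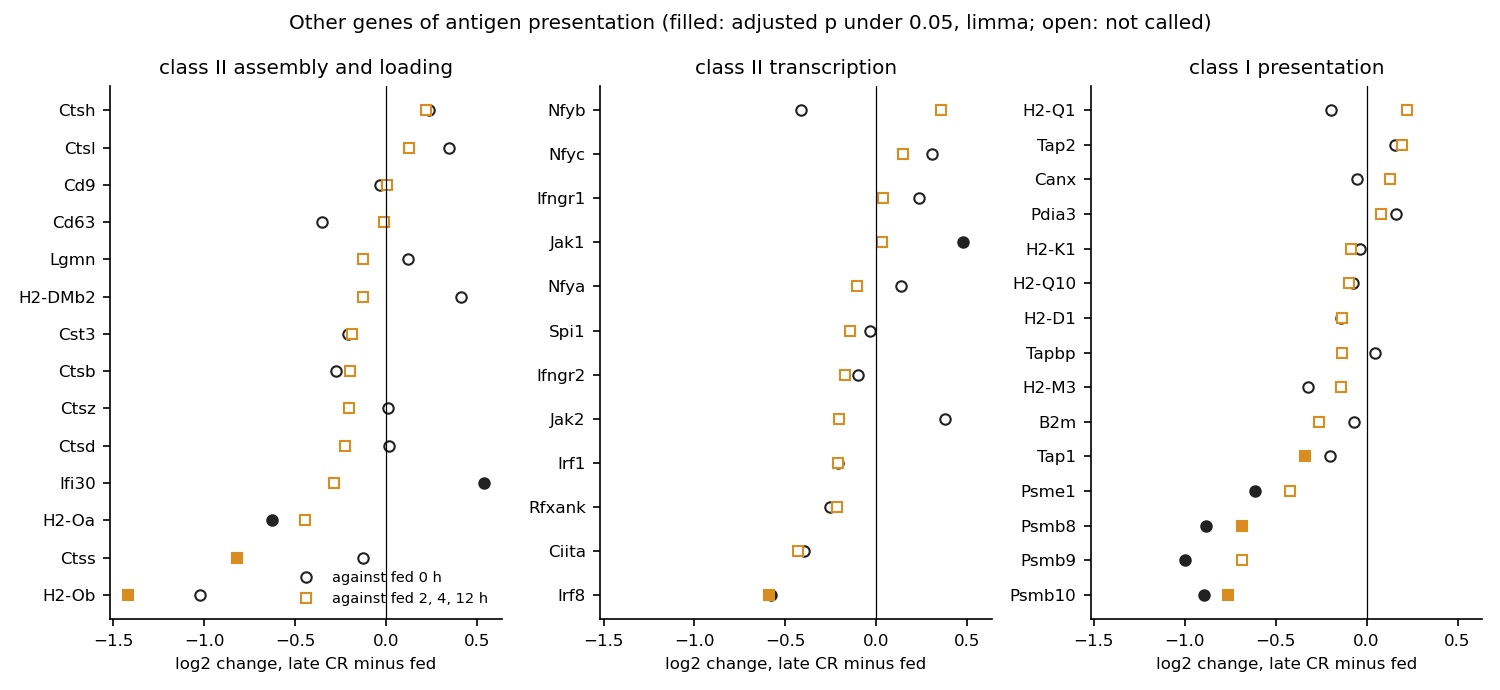
Log2 change in late CR (horizontal axis) of the tested genes of class II assembly, class II transcription and class I presentation, against fed 0 h (black circles) and fed 2, 4 and 12 h (orange squares), filled where adjusted p was under 0.05. The filled symbols left of 0 are H2-Oa, Ctss, H2-Ob, Irf8, Tap1, Psme1, Psmb8, Psmb9 and Psmb10, and those right of 0 are Ifi30 and Jak1.

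B-cell genes were lower in late CR beside the members. Of 11 tested B-cell genes, 5 fell and none rose against fed 0 h, with a median log2 change of -0.75, and 7 fell against fed 2, 4 and 12 h, where 8.24% and 2.73% of all tested probe sets were called lower. The 5 were Cd79b, Blk, Blnk, Ms4a1 and Fcer2a. The summed B-cell signal was 4646 to 7957 in late CR, 6725 to 15269 in fed 0 h and 11020 to 14347 in fed 2, 4 and 12 h. Of 5 tested T and NK cell genes, 3 fell against fed 0 h (Gzma, Gzmb and Klrd1) and their sum was 769 to 1353 in late CR, 1088 to 2484 in fed 0 h and 1401 to 2361 in later fed lungs. Of 9 dendritic cell genes 1 fell against fed 0 h, a share near that of all tested, namely Batf3, a factor of cross-presenting dendritic cells, and the sum was 5326 to 7150 in late CR, 6314 to 7906 in fed 0 h and 7093 to 7827 in later fed lungs. Against number 1 of fed 0 h alone, 7 of 11 B-cell genes, 4 of 5 T and NK cell genes and 5 of 9 dendritic cell genes fell (background 23.8%). Of the dendritic cell genes 1 rose there. Against number 2 alone, 2 of 11 B-cell genes, 0 of 5 T and NK cell genes and 0 of 9 dendritic cell genes fell (background 2.94%). The part of B, T, NK and dendritic cells in the lower class II signal was not tested.

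Of 13 tested macrophage and monocyte genes, none was called against fed 0 h, with a median log2 change of 0.01. In comparison with fed 2, 4 and 12 h, 1 fell, Cd68, a lysosomal protein of macrophages (log2 -0.73). Their sum was 55174 to 61386 at CR 72 and 96 h and 30886 to 35166 at CR 24 and 48 h, while the fed 0 h arrays had 58404 to 62135 in number 1 and 27426 to 37021 in number 2. CR 24 and 48 h against number 1 gave 9 of 13 lower and 1 higher (background 23.3% lower). CR 72 and 96 h against number 2 gave 7 of 13 higher and 0 lower, where 10.7% of all were called in either direction. The late mean thus pools opposite changes, and days and signal range cannot be told apart here. Of the lung's own markers, Sftpb and Slc34a2, genes of surfactant protein B and of the phosphate carrier of alveolar type II cells, rose among 4 type II genes against fed 0 h, and none of 4 type I and club cell genes was called. The type II sum was at 85356 to 166882 over late CR and at 91905 to 150226 over fed 0 h, so the labelled tissue carried its defining markers on every such array. This sum followed the signal range, with 137229 to 166882 at CR 24 and 48 h and 85356 to 106645 at CR 72 and 96 h.

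**Figure D4:**
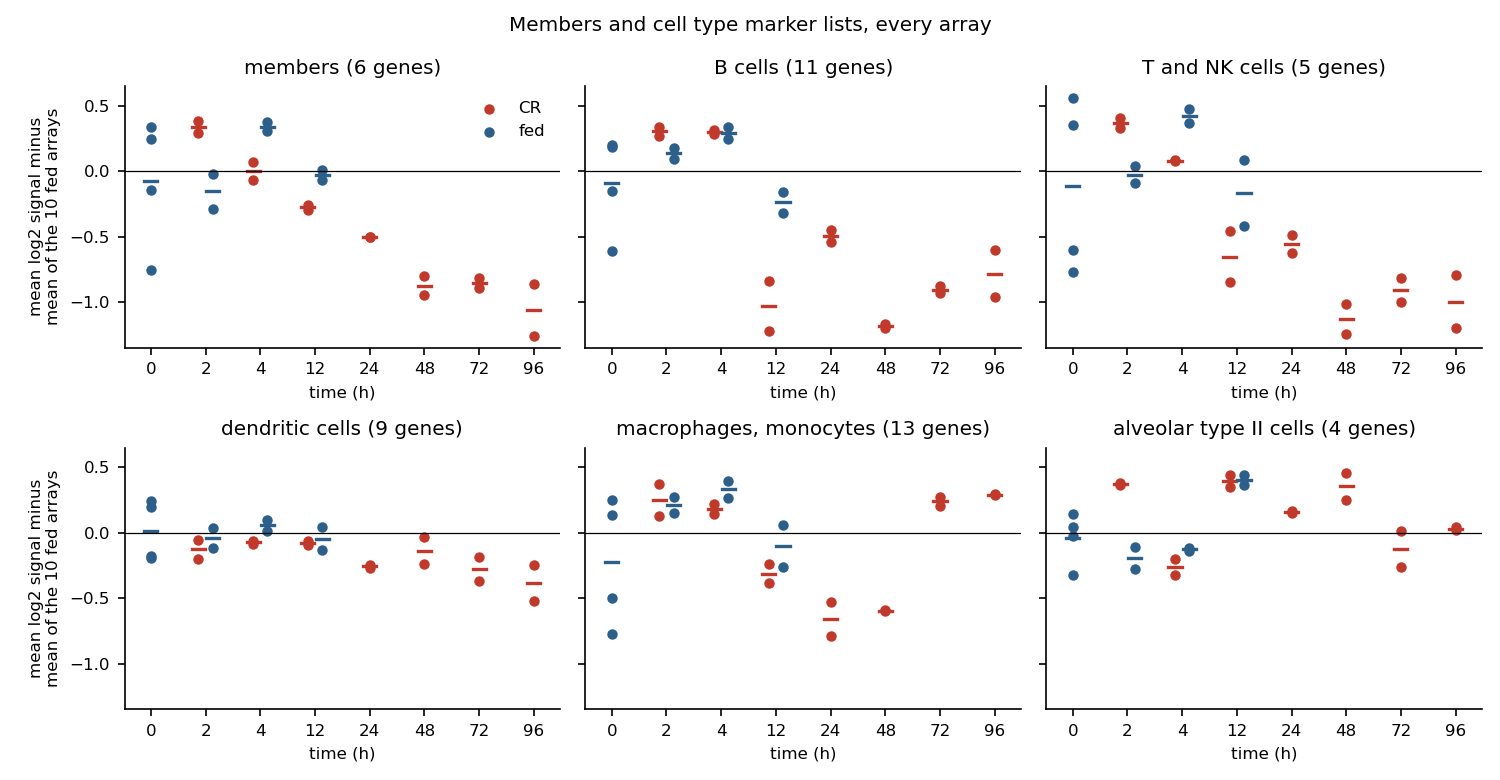
Mean log2 signal of the 6 members and of 5 marker lists on each array, minus the mean of the 10 fed arrays, against time in hours, with CR in red, fed in blue and bars at group means. Members, B-cell and T and NK cell genes lie low from CR 24 h on, the B-cell and the T and NK cell genes also at CR 12 h, while the macrophage genes lie low at CR 24 and 48 h and high at CR 72 and 96 h. The arrays of CR 24 and 48 h are of the high signal range and those of CR 72 and 96 h of the low one.

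At CR 12 h the B-cell genes had a median log2 change from fed 12 h of -1.06, with 1 of 11 called lower, while the members' median was -0.19 with none called. The T and NK cell genes had a median of -0.59, with none of 5 called. The difference between the lists was not tested.

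The genes whose profile over the 24 arrays was most like the mean standardised profile of the members were, of 5700 others, Lxn (Pearson r = 0.928), Plac8 (0.926), Gzma (0.909), Psmb10 (0.907), Tubb2a (0.904) and Slc38a5 (0.902). The median r of all genes was -0.01. Plac8, a small protein of leukocytes and epithelia, was at 1290 ± 471 in late CR and 6449 ± 4711 in fed 0 h (SD, 8 and 4 arrays) and was lower by 2.02 on the log2 scale (limma adjusted p = 0.000640). Gzma, a protease of cytotoxic lymphocytes, was at 151 ± 54.3 in late CR and 511 ± 359 in fed 0 h. These likenesses rest on shared arrays and carry no test. Among the marker lists, Cd79b stood at rank 9 and Cd79a at rank 18, the 2 signal chains of the B-cell receptor, and H2-Ob at rank 39. Ciita stood at rank 776, with r = 0.504.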

How the data were processed

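Lung RNA was measured on 24 MG-U74Av2 arrays. The authors deposited linear probe set intensities, already scaled to 1 trimmed mean as tested on the values, and no source used here names their software. An array of another platform entered no comparison, since its title and description disagree. Per the submitters' processing notes it comes from MAS5. Each array was scaled to a common median, values under the 25th percentile (80.4) were raised to it, and log2 was taken; folds of dim probe sets are thereby understated. Of 12422 probe sets other than controls, the 7440 reaching their array's median on at least 2 arrays were tested with limma 3.58.1 in R 4.3.3 (group means of 11 groups, trended eBayes, 13 residual degrees of freedom, two-sided, Benjamini-Hochberg over all 7440). Fed 0 h was split by number in a 12-group fit. Deposited medians were 300.2 to 342.3 and scaling factors 0.920 to 1.05, and the number of arrays limits precision. The Gapdh 3' over 5' ratio, a sign of RNA quality, was 1.21 to 2.15 in late CR, 1.76 to 2.02 in fed 0 h and 1.01 to 1.66 in fed 2, 4 and 12 h. That of actin was 1.63 to 3.81 in late CR, 1.87 to 2.31 in fed 0 h and 1.47 to 2.37 in fed 2, 4 and 12 h, with the highest values at CR 48 h (3.81 and 2.69) and on 1 array of CR 24 h (2.77). The fit was tested on simulated data.

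Probe sets were named by a 2016 annotation table, in which 10833 had 1 symbol, 396 several and 1193 none; of the first, 10817 were found in the GRCm38.p6 gene table. Members, lists and comparisons were chosen with earlier results of these data known. Named were all members, the 6 genes most like them, and up to 5 called genes of each list by smallest adjusted p in late CR against fed 0 h. Arrays a and b correlated at 0.940 to 0.976 across probe sets. Alternatives covered scaling, floor, filter, variance model, weights, blocks, averaging, other controls and each array left out.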

Additional observations from a re-analysis of the deposited data

How the results depend on the processing

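All 7 late changes stayed negative under each of 42 alternatives against fed 0 h and each of 38 against fed 2, 4 and 12 h. Some alternatives leave the log2 change itself as it was, so its sign could not turn there. Among these are no filter on low signal, other variance models, averaging a and b, and fitting only the compared groups. Against fed 0 h, where 5 probe sets were called lower, 3 were called with array weights, with only the compared groups in the fit and within the low signal range, 1 against number 2 alone, and 0 with a and b averaged, whether by group or with the times of a phase pooled. Of all tested probe sets, 18.1% were called in either direction in the main fit. This share was 3.87% with array weights, 4.66% with only the compared groups, 10.7% within the low signal range and 7.76% against number 2 alone. Without 1 array at a time the member count ran from 3 to 7. Against fed 2, 4 and 12 h, where 6 were called, the averaged settings gave 0 and leaving out 1 array gave 6 to 7. Pooled phases and leaving out CR 48 h were chosen after seeing the data. The bright H2-DMa probe set lost its call against fed 0 h in 14 of 42 alternatives, 1 of them without CR 48 h, H2-Ab1 in 8, H2-Eb1 and H2-DMb1 in 3 and H2-Aa in 2. The cause of these losses was not tested.

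The letter as a replicate block changed no call (5 and 6 called, and 0 in the early and fed comparisons). Over 66 pairs of a-minus-b differences the correlations were -0.190 to 0.123, so no strong effect of the letter was shared between groups. A pairing with a small effect could not be seen this way. With the signal range as a block, 5 and 7 were called lower in late CR, the dim H2-DMa probe set being the one gained. In early CR 1 probe set, H2-DMb1, was then called lower, where 6.08% of all were called in either direction. The early changes of H2-Aa, H2-Ab1 and Cd74 turned to -0.17, -0.37 and -0.0247. This block rests on number 1 against number 2 of fed 0 h, since no other group held both ranges. For fed 2, 4 and 12 h against fed 0 h, 1 was called higher with quantile normalization and 1 with the range block, both Cd74. Against number 1 alone 2 were called lower, and against number 2 alone 4 higher. Of all tested probe sets, 2.67%, 6.99%, 35.8% and 11% were called in either direction in those fits, in that order. Against number 1 alone, the fed changes of H2-Aa, H2-Ab1, H2-Eb1, H2-DMa and H2-DMb1 turned to -0.27, -0.62, -0.20, -0.19 and -0.49. The dim H2-DMa change turned to 0.0370 without scaling, 0.0203 with the range block and 0.0709 against number 2 alone. Leaving out 1 array gave early changes of -0.0257 to 0.11 for H2-Aa and -0.000727 to 0.11 for H2-Ab1. Fed changes then ran from -0.15 to 0.16 for H2-Aa, -0.30 to 0.30 for H2-Ab1, -0.10 to 0.18 for H2-Eb1, -0.20 to 0.19 for dim H2-DMa and -0.19 to 0.33 for H2-DMb1. None of these members had been called against the 4 fed 0 h arrays together, and of the reversed values only H2-Ab1 and H2-DMb1 against number 1 alone were called. Array weights stopped before full convergence.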

Other observations

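The array of the other platform, which was placed in no group, held 11 probe sets for 5 of the 6 genes among 45101. Its values come from another processing and are given on their own. Cd74 was at 440.5, percentile 91.9 of that array, and H2-Eb1 at 327, percentile 87.1. The 4 probe sets of H2-Aa ran from 71.6 to 928, the 3 of H2-Ab1 from 10.2 to 70.1, and the 2 of H2-DMa were at 82.1 and 48.5.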
